A study of Mus musculus with 18 samples.

Results

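Interferon-stimulated genes are the genes that cells switch on when interferon, the secreted alarm signal of antiviral defence, reaches its receptor. A list of 47 of them was followed here in mouse erythroleukemic cells. They were taken by gene symbol, and the list was chosen with earlier results of these data known. All 47 had a row among the 25628 genes of the experiment 1 table, and 46 had one among the 26903 genes of the experiment 2 table, in which Zbp1 was not analysed here. In each experiment 42 of them had enough counts to be tested, among 13811 tested genes in experiment 1 and 15051 in experiment 2. Ifit3b, Mx1, Ifitm3 and Ifi44 stayed under the limit in both experiments. Zbp1, a sensor of Z-form nucleic acids, stood at 1 count, the lowest value of its table, in all 6 libraries of experiment 1.

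The 18 libraries hold polyadenylated RNA from 1 line of leukemic bone marrow cells, TgSpi1 #763, which carries a Spi1 transgene and a doxycycline-inducible short hairpin RNA against Spi1 (SPI1, or PU.1, is a transcription factor of myeloid and B cells). Every group carries both constructs and was grown with erythropoietin. In experiment 1, cells without doxycycline (Exp1_NoDox) were compared with cells that had received it for 48 h (Exp1_Dox). In experiment 2, cells without or with the same 48 h of doxycycline also received DMSO, a solvent, or 3 µM entinostat for 6 h. Entinostat blocks histone deacetylases (the labels name HDAC1 and HDAC3), the enzymes that remove acetyl groups from histones. The solvent groups are NoDox_DMSO and Dox_DMSO, and the inhibitor groups NoDox_Entinostat and Dox_Entinostat. There are 3 libraries in each of the 6 groups, which the labels call biological replicates. The line is a single one and no group had a control hairpin, so the effects of the drug doxycycline and of the hairpin cannot be told apart.

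As background, type I interferon binds the receptor chains IFNAR1 and IFNAR2, the kinases JAK1 and TYK2 phosphorylate STAT proteins, among them STAT2, and these join IRF9 in a complex that binds the interferon-stimulated response element (ISRE) of its target genes. Interferon gamma acts at gamma-activated sites (GAS). IRF1 and IRF7 bind ISRE-like sequences as well, and SPI1 can bind ETS-IRF composite elements together with certain IRFs. Uninfected cells hold a low level of many of these genes without added interferon.

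The libraries of experiment 1 held 82.7 to 114 M counts each, and those of experiment 2 held 43.1 to 48.9 M. Levels are given in CPM, counts per M counts of a library after TMM scaling, and log2 fold changes with their standard error. Adjusted p-values are from edgeR's quasi-likelihood test with Benjamini-Hochberg adjustment over all genes tested, and a gene is said to rise or fall at an adjusted p under 0.05. The target Spi1 fell with doxycycline in experiment 1 (log2 fold change -1.73 ± 0.10), in DMSO (-1.29 ± 0.33) and in entinostat (-1.59 ± 0.33). The Spi1 call in DMSO (adjusted p = 0.0264) was lost without the first or the third Dox_DMSO library or the second or the third NoDox_DMSO library (0.0507 to 0.0903). Of 9 erythroid markers, 8 had a row, and all 8 were above 1 CPM in every group. Their summed level was higher with doxycycline in experiment 1 (3779 to 4307 CPM without it, 5736 to 6492 with it) and in DMSO (3290 to 3690 and 4618 to 5594), and in entinostat it was 2588 to 2926 without doxycycline and 2573 to 4281 with it. The summed level was at most 2.0004 CPM for macrophage markers, 0.530 for neutrophil, 0.475 for B cell, 1.67 for T and NK cell and 2.91 for stromal and endothelial markers. For plasmacytoid dendritic cells, professional makers of interferon, the marker sum ran from 0.473 to 2.21 CPM in Exp1_NoDox, from 1.09 to 6.502 in Exp1_Dox, from 0.829 to 2.13 in NoDox_DMSO and from 1.69 to 8.84 in Dox_DMSO. In entinostat it ran from 3.35 to 3.59 CPM without doxycycline and from 3.98 to 8.03 with it. Their defining gene Siglech was at 0 in all 6 DMSO libraries and between 0.329 and 0.352 CPM in NoDox_Entinostat. Cox6a2, another gene of that list, held 6.24 CPM of the highest sum in Exp1_Dox. The part of these markers in the results was not tested.

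Among the 12 libraries of experiment 2, 2 stood apart from the others of their group over all tested genes. The root mean square log2 distance to the other libraries of the group was 0.783 for the first Dox_DMSO library and 0.759 for the first NoDox_Entinostat library, against 0.330 to 0.518 for the remaining libraries. Of the 42 tested interferon-stimulated genes, 32 were lowest of the group in the first NoDox_Entinostat library and 28 in the first Dox_DMSO library. The first library was also the lowest for 23 genes in NoDox_DMSO, 23 in Exp1_Dox, 19 in Dox_Entinostat and 16 in Exp1_NoDox. Results of experiment 2 are therefore given with all 12 libraries and, where a count or call moves, without these 2. The deviations of these 2 libraries from their group means correlated at 0.780 over genes, and both groups enter the interaction below with the same sign. Without them, 2 libraries remain in each of these groups. Those pairs lay closer together than any other pair within a group (chi-squared per gene 10.7 and 10.2, against 27.6 to 570). The fit without the 2 libraries takes its spread partly from these pairs. The cause of the distance was not tested.

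The promoters of the list carry the ISRE core often. RefSeq start sites (GRCm38.p6) gave 44 windows for 38 of the 47 genes, each from 250 bases before to 50 after the start. The ISRE core, a pair of GAAA repeats separated by 2 bases of any kind and searched on both strands, was present for 19 of these 38 genes, against 3.99% of the 27025 genes with a window. The GAS core TTCNNNGAA was present for 10 genes (26.3%, against 9.55%), and the ETS-IRF composite, GGAA and GAAA separated by 2 bases, for 6 (15.8%, against 3.16%). The SPI1 core GAGGAAGT was found for 1 gene, Dtx3l (2.63%, against 3.69%). A match is a description of letters and not of binding.

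The 150 bases before the start of 7 genes on which the results below turn are shown 5′ to 3′ in the direction of the gene, with bases of an ISRE core in capitals. Ifit1, Isg15, Rsad2 and Gbp2 rose with entinostat, Irgm1 and Igtp carry the same core and did not rise, and Cmpk2, the neighbour of Rsad2, has no core match in its window.
Ifit1 (GRCm38.p6, chr19:34640739-34640888, plus strand): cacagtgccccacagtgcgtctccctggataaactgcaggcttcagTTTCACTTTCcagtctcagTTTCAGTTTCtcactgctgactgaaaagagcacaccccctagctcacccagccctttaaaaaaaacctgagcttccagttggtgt
Isg15 (chr4:156200819-156200968, minus strand): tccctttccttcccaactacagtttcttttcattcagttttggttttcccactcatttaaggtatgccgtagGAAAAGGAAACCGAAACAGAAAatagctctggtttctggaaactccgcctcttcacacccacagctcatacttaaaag
Rsad2 (chr12:26456453-26456602, minus strand): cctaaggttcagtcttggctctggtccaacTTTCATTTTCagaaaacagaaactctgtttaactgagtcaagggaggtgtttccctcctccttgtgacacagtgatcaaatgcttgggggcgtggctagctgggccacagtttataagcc
Gbp2 (chr3:142620513-142620662, plus strand): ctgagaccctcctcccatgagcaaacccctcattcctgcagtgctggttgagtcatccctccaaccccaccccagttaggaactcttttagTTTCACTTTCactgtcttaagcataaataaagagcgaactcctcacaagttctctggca
Irgm1 (chr11:48871421-48871570, minus strand): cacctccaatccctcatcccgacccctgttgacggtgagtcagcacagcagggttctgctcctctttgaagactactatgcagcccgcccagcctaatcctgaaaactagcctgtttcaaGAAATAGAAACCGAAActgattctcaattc
Igtp (chr11:58199406-58199555, plus strand): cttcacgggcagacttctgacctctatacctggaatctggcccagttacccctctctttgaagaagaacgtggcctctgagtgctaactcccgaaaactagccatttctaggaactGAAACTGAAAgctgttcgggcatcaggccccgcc
Cmpk2 (chr12:26469065-26469214, plus strand): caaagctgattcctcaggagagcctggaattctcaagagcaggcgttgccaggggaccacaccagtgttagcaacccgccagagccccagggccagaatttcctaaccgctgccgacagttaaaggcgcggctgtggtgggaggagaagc

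In Irgm1 2 cores overlap, and in Isg15 3 cores overlap, where they span bases 78 to 57 before the start. Ifit1 holds 2 separate cores, from 104 to 95 and from 85 to 76 bases before the start, both on the strand opposite to the gene. Igtp holds 1 core from 34 to 25 bases before its start and Rsad2 holds 1 from 120 to 111 bases before its start.

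In untreated cells of experiment 2 the genes differed widely in level. Per kilobase of exon sequence in NoDox_DMSO, Bst2 (tetherin, which holds budding virus at the cell surface) stood highest at 40.3 ± 3.38 CPM per kb (SD, n = 3). Ifi35, an interferon-induced leucine zipper protein, followed at 39.4 ± 0.604, within the spread of Bst2. Psmb8, an immunoproteasome subunit, stood at 31.9 ± 3.10 and Trim25, a ubiquitin ligase of RIG-I signalling, at 29.2 ± 3.15, which overlap within their SD. Oasl1, a 2′-5′-oligoadenylate synthetase-like protein, came next at 19.2 ± 0.0517. At the other end, the tested genes Ifit3, Rsad2 and Mx2 stood at 0.0919 ± 0.0559, 0.0879 ± 0.0117 and 0.0817 ± 0.0538 CPM per kb, which do not differ beyond their spread. The classical inducible genes Ifit1 (0.483 ± 0.144) and Usp18 (0.798 ± 0.265) were also low, while Isg15 reached 10.5 ± 1.72.

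The genes that changed with doxycycline moved in both directions, and their number depended on the fit. In experiment 1, without the replicate numbers, 2 of 42 rose and 4 fell, against 5.26% and 8.36% of all genes tested. With the numbers as a block, since same-numbered libraries of experiment 1 deviated together, 7 rose and 19 fell, against 26.1% and 24.7% of all genes. In DMSO 3 rose and 5 fell, against 3.77% and 5.53%. The median log2 fold change was -0.17 in experiment 1 (all genes 0.02) and -0.08 in DMSO (all genes 0.05). The DMSO median changed sign without the 2 libraries that stood apart (0.05, 24 genes positive and 18 negative), without the first Dox_DMSO library (0.06) and without the third NoDox_DMSO library (0.04). Cmpk2 and Xaf1 rose and Ifitm1, Oas2, Psmb8 and Psmb9 fell in both experiments, which share no library. Isg15 rose and Gbp2 fell in DMSO, and in experiment 1 they passed with the block and not without it. These counts rest on single libraries. Leaving out each library in turn gave 0 to 2 rises and 1 to 3 falls in experiment 1, where every library moved a count by over 1.5 times except the third Exp1_NoDox and the first Exp1_Dox library for rises and the first Exp1_NoDox library for falls. In DMSO it gave 1 to 5 rises and 1 to 6 falls, with 5 rises without the first Dox_DMSO library and 1 rise without the first or the second NoDox_DMSO or the second Dox_DMSO library. There the falls went down to 1 or 2 without the second or the third library of either DMSO group or the third library of either entinostat group. Over all genes these fits gave 197 to 567 rises and 487 to 941 falls of 13936 to 14158 in experiment 1. In DMSO they gave 325 to 836 rises and 536 to 991 falls of 15431 to 15616. Of the 42 genes, 32 had the same sign in both experiments and 10 the opposite sign.

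**Figure D1:**
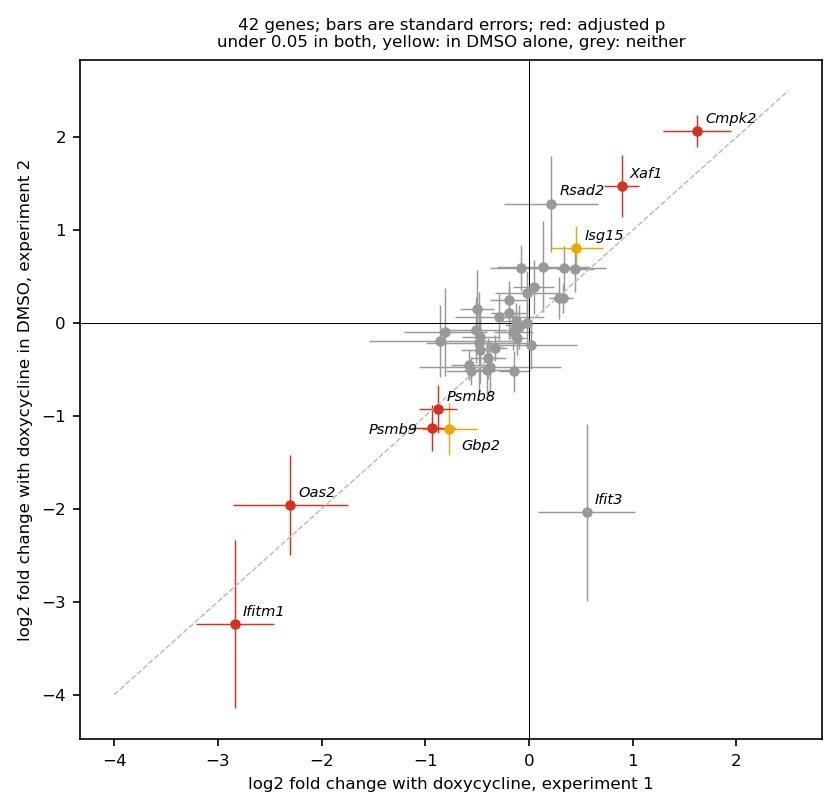
Log2 fold change with doxycycline of the 42 tested genes in experiment 1 (horizontal axis) and in DMSO in experiment 2 (vertical axis), with standard errors as bars and equality as a dashed line. The 6 red genes passed the test in both experiments, with Cmpk2 (1.62 and 2.07) and Xaf1 (0.89 and 1.48) at the upper right and Ifitm1 (-2.84 and -3.24) and Oas2 (-2.30 and -1.96) at the lower left.

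Cmpk2 encodes a mitochondrial nucleotide kinase and lies on chromosome 12 (mm10, 26469204 to 26479837), head to head with Rsad2 at a gap of 12751 bases. Its level was 1.74, 2.87 and 3.75 CPM in Exp1_NoDox and 6.11, 9.11 and 10.5 in Exp1_Dox. The DMSO libraries gave 2.34, 1.89 and 2.53 CPM without doxycycline and 9.185, 9.960 and 9.198 with it. Every doxycycline library lay above every library without it, in both experiments. The log2 fold change was 1.62 ± 0.33 (adjusted p = 0.0236) in experiment 1 and 2.07 ± 0.17 (adjusted p = 6.70e-06) in DMSO. The call in experiment 1 was lost without the second Exp1_NoDox library (adjusted p = 0.0680), the second Exp1_Dox library (0.0750) or the third (0.0863), and with the replicate numbers as a block it held (1.64, adjusted p = 6.17e-07). No single library of experiment 2 ended the call in DMSO.

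Rsad2, the neighbour of Cmpk2, encodes viperin, which makes a chain-terminating nucleotide from the product of CMPK2. Rsad2 stood at 0.551, 1.04 and 1.33 CPM in Exp1_NoDox and at 0.560, 1.54 and 1.31 in Exp1_Dox. The groups overlapped, and the log2 fold change was 0.22 ± 0.45 (adjusted p = 0.850). NoDox_DMSO gave 0.337, 0.369 and 0.436 CPM and Dox_DMSO 0.295, 1.45 and 1.03 (1.28 ± 0.52, adjusted p = 0.173). The first Dox_DMSO library was the lowest of all 6, and the other 2 lay above every NoDox_DMSO library. Without that library and the first NoDox_Entinostat library Rsad2 passed the test (1.70, adjusted p = 0.000374).

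Xaf1, a pro-apoptotic partner of the inhibitor of apoptosis XIAP, lies on chromosome 11 (72301629 to 72313733). It stood at 5.51, 5.35 and 7.74 CPM in Exp1_NoDox and at 11.3, 10.9 and 12.4 in Exp1_Dox. In NoDox_DMSO its level was 4.94, 5.34 and 6.07 CPM, and in Dox_DMSO 7.64, 19.0 and 18.8. Neither pair of groups overlapped. The log2 fold change was 0.89 ± 0.17 (adjusted p = 0.0183) in experiment 1 and 1.48 ± 0.33 (adjusted p = 0.0119) in DMSO. Leaving out 1 library ended the call in 4 of 6 cases in experiment 1, all but the third Exp1_NoDox and the first Exp1_Dox library (adjusted p 0.0525 to 0.0803). In DMSO it ended without the first or second NoDox_DMSO or the second or the third Dox_DMSO library (0.0524 to 0.0610).

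Isg15, the ubiquitin-like protein that is attached to other proteins, stood at 8.40, 6.43 and 8.88 CPM in NoDox_DMSO and at 17.4, 13.6 and 10.5 in Dox_DMSO. All 3 doxycycline libraries lay above the others (0.81 ± 0.23, adjusted p = 0.0459). The call was lost in 10 of 12 cases when 1 library was left out, all but the first NoDox_Entinostat and the third Dox_DMSO library (adjusted p 0.0519 to 0.197). In experiment 1, 3.33, 5.19 and 5.23 CPM stood against 4.51, 7.46 and 6.87, and the groups overlapped (0.45 ± 0.26, adjusted p = 0.342, with the block 0.45, adjusted p = 0.000711).

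Among the genes that fell, Psmb8 and Psmb9 encode catalytic subunits of the immunoproteasome, which cuts peptides for presentation on MHC class I, and lie 9956 bases apart on chromosome 17. Psmb8 stood at 94.7, 134 and 123.4 CPM in Exp1_NoDox and at 50.5, 73.1 and 68.2 in Exp1_Dox. NoDox_DMSO gave 114, 95.9 and 114 CPM and Dox_DMSO 78.7, 44.4 and 47.6. The groups did not overlap in either experiment, and the log2 fold change was -0.88 ± 0.19 (adjusted p = 0.0278) and -0.93 ± 0.26 (adjusted p = 0.0407). Psmb9 stood at 19.9, 29.8 and 29.1 CPM in Exp1_NoDox and at 10.29, 15.82 and 15.002 in Exp1_Dox. NoDox_DMSO gave 42.5, 37.5 and 41.7 CPM and Dox_DMSO 25.6, 16.3 and 13.7. It too separated the groups in both experiments (-0.94 ± 0.22, adjusted p = 0.0400, and -1.13 ± 0.25, adjusted p = 0.0111).

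These immunoproteasome calls rested on single libraries. In experiment 1 the Psmb8 call was lost without the second or the third library of either group (adjusted p 0.0552 to 0.117), and the Psmb9 call without any library except the first Exp1_NoDox one (0.0612 to 0.155) or with no filter on low counts (0.0510). In DMSO the Psmb8 call was lost without any NoDox_DMSO library, the second or the third Dox_DMSO library or the third library of either entinostat group (0.0572 to 0.165). The Psmb9 call in DMSO was lost when the second Dox_DMSO library (0.0560) or the third (0.0549) was left out. With the replicate numbers as a block both genes fell in experiment 1 (Psmb8 -0.88, adjusted p = 1.75e-07, Psmb9 -0.94, adjusted p = 4.93e-07).

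Oas2 makes 2′-5′-oligoadenylates, which activate RNase L, and lies on chromosome 5 (120730333 to 120749853), 3244 bases from Oas3. It stood at 1.31, 1.04 and 3.40 CPM in Exp1_NoDox and at 0.249, 0.356 and 0.561 in Exp1_Dox. NoDox_DMSO gave 1.82, 2.52 and 3.49 CPM and Dox_DMSO 0.147, 1.30 and 0.539. Groups did not overlap in either experiment (-2.30 ± 0.55, adjusted p = 0.0410, and -1.96 ± 0.54, adjusted p = 0.0372). The call was lost without any library of experiment 1 except the second Exp1_NoDox one (0.0565 to 0.132). In DMSO it was lost without the second or the third NoDox_DMSO library, the third Dox_DMSO library, the third NoDox_Entinostat library or the second or the third Dox_Entinostat library (0.0503 to 0.143). The neighbour Oas3 stood at -0.50 ± 0.16 in experiment 1 (adjusted p = 0.109, with the block -0.49, adjusted p = 0.000391) and at 0.15 ± 0.42 in DMSO (adjusted p = 0.915).

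Ifitm1, a membrane protein that hinders viral entry, was at the edge of detection. It had 22, 18 and 19 counts in Exp1_NoDox and 2, 4 and 2 in Exp1_Dox, where the lowest value of the table is 1 count. In DMSO it had 32 counts over the 3 libraries without doxycycline and 3 over the 3 with it. That ratio is 10.4, with an exact 95% interval from 3.27 to 53.3 that covers counting error only. The fitted log2 fold change was -2.84 ± 0.38 in experiment 1 (adjusted p = 0.00569) and -3.24 ± 0.91 in DMSO (adjusted p = 0.0407). With 1 subtracted from every count of experiment 1 it was -3.41 (adjusted p = 0.00602). In DMSO the call was lost in 9 of 12 cases when 1 library was left out, all but the first NoDox_DMSO, NoDox_Entinostat and Dox_Entinostat libraries (adjusted p 0.0501 to 0.205).

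Gbp2, a guanylate-binding GTPase induced by interferon gamma, stood at 1.15, 1.54 and 1.81 CPM in NoDox_DMSO and at 0.516, 0.799 and 0.711 in Dox_DMSO. The groups did not overlap (-1.14 ± 0.28, adjusted p = 0.0198). The call was lost without the first or the third Dox_DMSO or the second or the third NoDox_DMSO library (0.0528 to 0.101). In experiment 1 the groups did not overlap either, at 1.29, 1.22 and 1.42 against 0.612, 0.600 and 1.10 CPM (-0.77 ± 0.27, adjusted p = 0.124, with the block -0.80, adjusted p = 0.00366).

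Complete separation of the 3 doxycycline libraries from the 3 others was counted without a model. In experiment 1, 4 genes lay higher and 10 lower, against 15.3% and 16.8% of all genes. In DMSO 4 lay higher and 11 lower, against 11.5% and 14.3%. In the blocked fit of experiment 1, besides those named above, Ifih1, Igtp, Irf7, Isg15 and Parp9 rose, by 0.29 to 0.45 on the log2 scale. Among the genes that fell in it were Oas1a (-0.56), Sp100 (-0.57), Gbp2 (-0.80), Ddx58 (-0.48), Oas3 (-0.49) and Ifi35 (-0.32). Without the 2 libraries that stood apart, 10 genes rose and 7 fell in DMSO, against 17.4% and 13.9% of all genes. Those that passed upwards only then were Rsad2, Igtp (0.84), Irf7 (0.81), Samhd1 (0.66), Helz2 (0.49), Ifih1 (0.44) and Dtx3l (0.34), and Oas1a (-0.57) and Sp100 (-0.57) passed downwards.

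Entinostat raised a large share of the list within 6 h. In cells without doxycycline 22 of 42 genes rose and 3 fell, against 30.3% and 16.9% of all genes tested, and the median log2 fold change was 0.83 (all genes 0.07). Of these 42, Mx2, Ifitm1 and Ifit3 reached the limit on low counts only through the entinostat libraries, where they were high. Among the 39 genes that reached it in NoDox_DMSO alone, 19 rose and 3 fell, against 20.2% and 21.2% of the 11940 genes that did so, with medians of 0.74 and -0.11. With doxycycline 22 of 42 rose and 9 fell, against 33.9% and 29.9%. Mx2, Ifitm1, Ifit3, Oas2 and Trim30a did not reach the limit in Dox_DMSO alone. Among the 37 that reached the limit in Dox_DMSO alone, 18 rose and 9 fell, against 22.7% and 37.8% of 11802 genes, with medians of 0.47 and -0.20. The comparisons come from 1 fit and share no library. Marker sums of other cell types also moved with entinostat: without doxycycline the macrophage sum went from between 0.360 and 0.760 to between 1.72 and 2.0004 CPM, and the stromal and endothelial sum from between 0.109 and 0.180 to between 1.79 and 2.25 CPM. The T and NK cell sum went from at most 0.135 to between 0.871 and 1.15 CPM. With doxycycline the macrophage sum went from between 0.237 and 0.418 to between 1.12 and 1.59 CPM, the stromal and endothelial sum from between 0.0432 and 0.0646 to between 1.03 and 2.91, and the T and NK cell sum from between 0.0216 and 0.0646 to between 1.296 and 1.67. Single genes carried much of these sums. Cd14 stood at 1.53, 1.55 and 1.67 CPM in NoDox_Entinostat, most of the macrophage sum there. Csf1r, the other tested macrophage marker, rose without doxycycline (1.53 ± 0.56, adjusted p = 0.0393) and not with it (-0.86 ± 0.53, adjusted p = 0.174). Cd3g was the only tested T and NK cell marker, and Col1a1 the only tested stromal and endothelial one. Of 4 tested plasmacytoid dendritic cell markers, Siglech and Pacsin1, both without a count in NoDox_DMSO, and Ccr9 (1.70 ± 0.46, adjusted p = 0.00856) rose without doxycycline. Cox6a2 did not (-0.24 ± 0.77, adjusted p = 0.827), and with doxycycline Pacsin1 alone rose. The B cell sum went from at most 0.0449 to between 0.210 and 0.475 CPM without doxycycline, and was at most 0.0671 CPM with it. The part of these cells or genes in the rises was not tested, and in bulk RNA a change in the number of cells and a change in RNA per cell cannot be told apart.

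**Figure D2:**
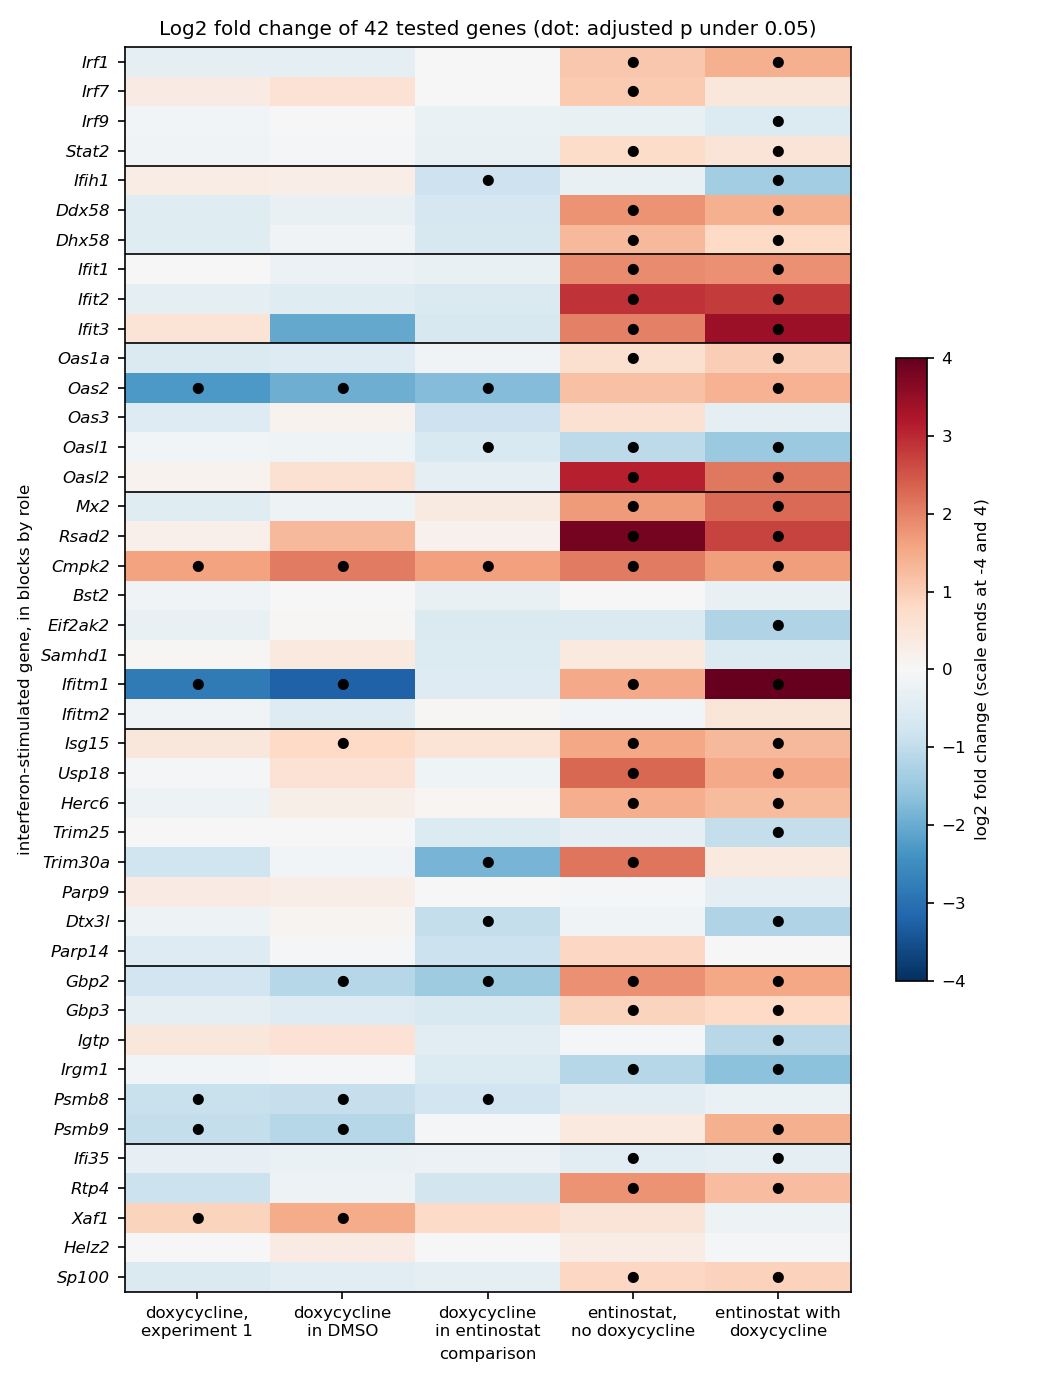
Log2 fold change of the 42 tested genes (rows, in blocks by role) in the 5 comparisons (columns), with a dot where the adjusted p was under 0.05. Colours end at -4 and 4, which Ifitm1 exceeds in the last column (4.24), and rises with entinostat fill most of the 2 right columns while the 3 doxycycline columns hold 6, 8 and 8 dots.

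Level was set beside response with a split at 10 CPM of mean level over the 12 libraries, chosen after the values were seen, among genes that reached the limit on low counts in the DMSO group alone. Without doxycycline 12 of 14 genes below 10 CPM rose and 0 fell, against 40.8% and 6.94% of all such genes. From 10 CPM upwards 7 of 25 rose and 3 fell, against 11.5% and 27.2%. With doxycycline the counts were 11 and 0 of 12 below 10 CPM, against 43.7% and 11.2%, and 7 and 9 of 25 above, against 14.2% and 48.4%. The mean includes the entinostat libraries, so the side of the split on which a gene lies depends partly on its response. Ifit2, Isg15 and Cmpk2 counted as above 10 CPM, although all their NoDox_DMSO libraries lay below it. The split therefore cannot show how the level before entinostat relates to the response.

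**Figure D3:**
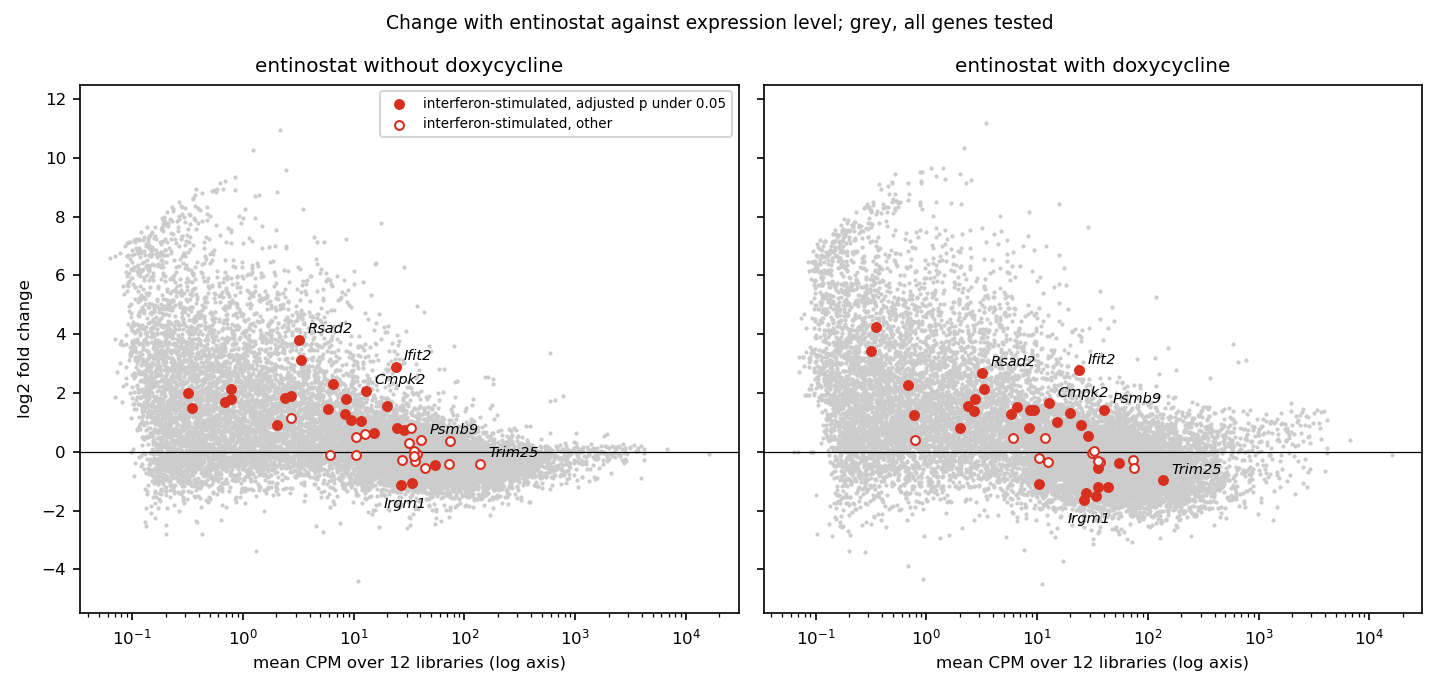
Log2 fold change with entinostat against the mean level over 12 libraries (log axis, CPM), without doxycycline (left) and with it (right); red points are interferon-stimulated genes, filled where the adjusted p was under 0.05, and grey points are all other tested genes. No red point with a mean below 10 CPM passed downwards, and those with a mean above 10 CPM lie on both sides, from Ifit2 (2.90 and 2.78) to Irgm1 (-1.13 and -1.65). The mean includes the entinostat libraries, and Ifit2 lay below 10 CPM in all DMSO libraries.

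By role, the IFIT proteins bind foreign RNA, and their genes are clustered on chromosome 19. Of 4 on the list Ifit1 and Ifit2 rose in both comparisons, Ifit3 was tested only because its entinostat libraries reached the limit on low counts, and Ifit3b was not tested. Ifit2 (34550694 to 34576419) stood at 5.51, 6.28 and 8.49 CPM in NoDox_DMSO and at 36.6, 55.9 and 58.5 in NoDox_Entinostat. The libraries with doxycycline gave 3.02, 4.80 and 6.74 CPM in DMSO and 32.2, 30.8 and 37.5 in entinostat. Every entinostat library lay above every DMSO library (2.90 ± 0.29, adjusted p = 8.71e-06, and 2.78 ± 0.29, adjusted p = 9.08e-06). Ifit1 rose from 1.08, 1.04 and 1.72 to 3.97, 5.45 and 4.78 CPM without doxycycline (1.88 ± 0.25, adjusted p = 6.34e-05). With doxycycline it rose from 1.08, 1.10 and 1.08 to 4.39, 3.34 and 3.74 CPM (1.81 ± 0.25, adjusted p = 7.05e-05). Ifit3 rose at levels of at most 1.0002 CPM (2.01 ± 0.67 and 3.42 ± 0.86), and since Ifit3 and the untested Ifit3b are near-identical copies, reads may be split between them and both values are uncertain.

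Among antiviral effectors, Rsad2 showed the largest fold change of the list without doxycycline. It went from 0.337, 0.369 and 0.436 CPM to 2.63, 6.56 and 7.06 (3.82 ± 0.51, adjusted p = 7.38e-05), with the first entinostat library the lowest. With doxycycline it went from 0.295, 1.45 and 1.03 to 4.83, 6.39 and 6.94 CPM (2.70 ± 0.47, adjusted p = 0.000368). Neither pair of groups overlapped. Cmpk2 rose from the DMSO levels given above to 8.89, 10.4 and 9.28 CPM without doxycycline (2.08 ± 0.17, adjusted p = 2.20e-06) and to 28.7, 27.3 and 33.9 CPM with it (1.67 ± 0.16, adjusted p = 6.11e-06). Its NoDox_Entinostat libraries overlapped those of Dox_DMSO, and its Dox_Entinostat libraries lay above all others.

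Mx2, a dynamin-like GTPase annotated as a polymorphic pseudogene, rose at levels of at most 1.77 CPM (1.70 ± 0.50 and 2.27 ± 0.51). Ifitm1 rose without doxycycline (1.503 ± 0.581, adjusted p = 0.0485). With doxycycline 3 counts over Dox_DMSO stood against 63 over Dox_Entinostat, a ratio of 20.9 with an exact 95% counting interval of 6.83 to 104. Bst2, Samhd1 (which degrades deoxynucleotides) and Ifitm2 passed the test in neither entinostat comparison with 12 libraries. Without the 2 libraries that stood apart Samhd1 passed upwards without doxycycline (0.62, adjusted p = 0.000678) and downwards with it (-0.82, adjusted p = 3.78e-05), and Ifitm1 no longer passed without doxycycline (1.40, adjusted p = 0.0545). Eif2ak2, the RNA-activated kinase PKR, fell with doxycycline present (-1.21 ± 0.25, adjusted p = 0.00123) and stood at -0.57 ± 0.25 without it (adjusted p = 0.0792, without the 2 libraries -0.32, adjusted p = 0.0179).

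In the ISG15 system, the modifier, its protease and its ligase rose together. Isg15 rose from 8.40, 6.43 and 8.88 to 30.3, 19.4 and 20.3 CPM without doxycycline (1.56 ± 0.24, adjusted p = 0.000171). With doxycycline it rose from 17.4, 13.6 and 10.5 to 39.6, 30.2 and 33.2 CPM (1.31 ± 0.23, adjusted p = 0.000400). The groups did not overlap in either case. Usp18, which removes ISG15 and dampens the interferon receptor, rose from 1.75, 1.85 and 3.08 to 9.85, 11.3 and 11.6 CPM (2.29 ± 0.25, adjusted p = 1.75e-05). With doxycycline it rose by 1.52 ± 0.25 (adjusted p = 0.000215). Herc6, the main ISG15 ligase of the mouse, rose by 1.46 ± 0.20 (adjusted p = 9.55e-05) and 1.28 ± 0.20 (adjusted p = 0.000178).

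The ubiquitin ligases and ADP-ribosyltransferases of the list differed among themselves. Trim25 stood at 148, 174 and 182 CPM in NoDox_DMSO and at 82.0, 144 and 154 in NoDox_Entinostat, and the groups overlapped (-0.41 ± 0.24, adjusted p = 0.195). With doxycycline it fell from 122, 187 and 195 to 78.6, 82.1 and 97.7 CPM (-0.96 ± 0.25, adjusted p = 0.00436). Dtx3l fell with doxycycline present (-1.21 ± 0.29, adjusted p = 0.00280), and its partner Parp9 stood at -0.36 ± 0.15 (adjusted p = 0.0565). These genes overlap by 682 bases on opposite strands of chromosome 16, and counts without strand cannot separate reads from the shared stretch. Trim30a, a low gene, rose without doxycycline from 0.337, 0.369 and 0.524 to 1.261, 2.065 and 2.167 CPM (2.15 ± 0.44, adjusted p = 0.00148) and stood at 0.40 ± 0.46 with it (adjusted p = 0.461). Parp14 stood at 20.1, 31.02 and 32.3 CPM in NoDox_DMSO and at 24.5, 59.03 and 64.3 in NoDox_Entinostat (0.83 ± 0.36, adjusted p = 0.0751), and without the 2 libraries that stood apart it passed (1.143, adjusted p = 3.34e-05). With doxycycline it stood at 0.03 ± 0.36 (adjusted p = 0.949).

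The OAS family split. Oasl2 rose from 0.382, 0.891 and 0.960 to 3.61, 7.36 and 8.39 CPM without doxycycline (3.11 ± 0.49, adjusted p = 0.000235) and by 2.12 ± 0.47 with it (adjusted p = 0.00178). Its neighbour Oasl1, 11005 bases away on chromosome 5 and a repressor of IRF7 translation, went the other way. Oasl1 stood at 49.954, 50.155 and 50.210 CPM in NoDox_DMSO and at 17.3, 27.2 and 27.7 in NoDox_Entinostat (-1.06 ± 0.19, adjusted p = 0.000647). With doxycycline it fell from 36.2, 51.0 and 47.6 to 16.1, 14.7 and 16.9 CPM (-1.50 ± 0.19, adjusted p = 4.34e-05). All its entinostat libraries lay below all its DMSO libraries. Oas1a rose (0.626 ± 0.152 and 0.998 ± 0.153, adjusted p = 0.00438 and 0.000149), and Oas3 passed in neither case. Oas2 stood at 1.16 ± 0.49 without doxycycline (adjusted p = 0.0710) and passed with it (1.40 ± 0.54, adjusted p = 0.0374). In Dox_DMSO alone Oas2 did not reach the limit on low counts. Without the 2 libraries that stood apart Oas2 passed without doxycycline (1.25, adjusted p = 0.00755) and not with it (0.93, adjusted p = 0.0570). Oas3 then passed upwards without doxycycline (0.90, adjusted p = 0.00210) and downwards with it (-0.74, adjusted p = 0.00610).

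Among the transcription factors, Irf1 rose from 5.55, 5.45 and 7.94 to 11.1, 13.8 and 14.9 CPM without doxycycline (1.07 ± 0.22, adjusted p = 0.00151). With doxycycline it rose from 4.13, 4.99 and 5.43 to 10.004, 14.44 and 14.75 CPM (1.43 ± 0.22, adjusted p = 0.000165), and neither pair of groups overlapped. Stat2 rose by 0.74 ± 0.20 (adjusted p = 0.00878) and 0.52 ± 0.20 (adjusted p = 0.0363). Irf7, the amplifier of interferon production, rose without doxycycline (1.06 ± 0.24, adjusted p = 0.00308) and stood at 0.46 ± 0.24 with it (adjusted p = 0.108). Irf9 fell with doxycycline present from 38.9, 42.9 and 40.4 to 28.4, 27.2 and 28.1 CPM (-0.54 ± 0.12, adjusted p = 0.00218).

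The RNA sensors split as well. Ddx58, which encodes RIG-I, rose from 3.48, 4.78 and 5.59 to 9.43, 18.7 and 19.7 CPM without doxycycline (1.79 ± 0.36, adjusted p = 0.00136) and by 1.41 ± 0.36 with it (adjusted p = 0.00453). Dhx58, the regulator LGP2, rose by 1.29 ± 0.28 and 0.80 ± 0.28 (adjusted p = 0.00211 and 0.0226). Ifih1, which encodes MDA5, stood at 30.5, 33.5 and 30.8 CPM in NoDox_DMSO and at 17.2, 30.1 and 30.1 in NoDox_Entinostat (-0.29 ± 0.23, adjusted p = 0.326). With doxycycline it fell from 28.6, 44.3 and 41.3 to 16.9, 12.2 and 14.2 CPM (-1.40 ± 0.23, adjusted p = 0.000266). The Dox_Entinostat libraries of Ifih1 were the lowest of the 12.

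Of the GTPases, Gbp2 rose from 1.15, 1.54 and 1.81 to 4.14, 6.30 and 5.58 CPM without doxycycline (1.83 ± 0.26, adjusted p = 0.000123) and from 0.516, 0.799 and 0.711 to 2.260, 2.0008 and 1.717 CPM with it (1.55 ± 0.28, adjusted p = 0.000425). Gbp3 rose by 0.90 ± 0.27 and 0.81 ± 0.28 (adjusted p = 0.0161 and 0.0229). Irgm1, an immunity-related GTPase of autophagy, fell from 37.5, 39.4 and 39.3 to 11.5, 20.2 and 21.3 CPM (-1.13 ± 0.24, adjusted p = 0.00179). With doxycycline it fell from 27.3, 46.8 and 39.0 to 12.8, 10.5 and 12.6 CPM (-1.65 ± 0.24, adjusted p = 0.000110). The related Igtp stood at -0.09 ± 0.25 without doxycycline (adjusted p = 0.790) and fell with it (-1.11 ± 0.25, adjusted p = 0.00201).

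The immunoproteasome subunits parted under entinostat. Psmb9 stood at 73.3, 43.0 and 43.0 CPM in NoDox_Entinostat, just above its DMSO libraries (0.39 ± 0.25, adjusted p = 0.219). In Dox_Entinostat it stood at 54.7, 47.2 and 48.3 CPM, above all Dox_DMSO libraries (1.44 ± 0.25, adjusted p = 0.000369). Psmb8 stood at 95.6, 64.4 and 82.6 CPM in NoDox_Entinostat and at 62.9, 35.3 and 43.1 in Dox_Entinostat, and passed the test in neither comparison (-0.42 ± 0.26, adjusted p = 0.206, and -0.27 ± 0.26, adjusted p = 0.368). Without the 2 libraries that stood apart Psmb8 fell without doxycycline (-0.56, adjusted p = 0.0211). Among the remaining genes, Sp100, a component of nuclear bodies, rose by 0.83 ± 0.16 and 0.92 ± 0.16 (adjusted p = 0.00104 and 0.000356) and Rtp4, a receptor chaperone with antiviral activity, by 1.81 ± 0.36 and 1.25 ± 0.37 (adjusted p = 0.00120 and 0.0101). Ifi35 fell by 0.43 ± 0.14 and 0.39 ± 0.14 on the log2 scale (adjusted p = 0.0208 and 0.0269).

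**Figure D4:**
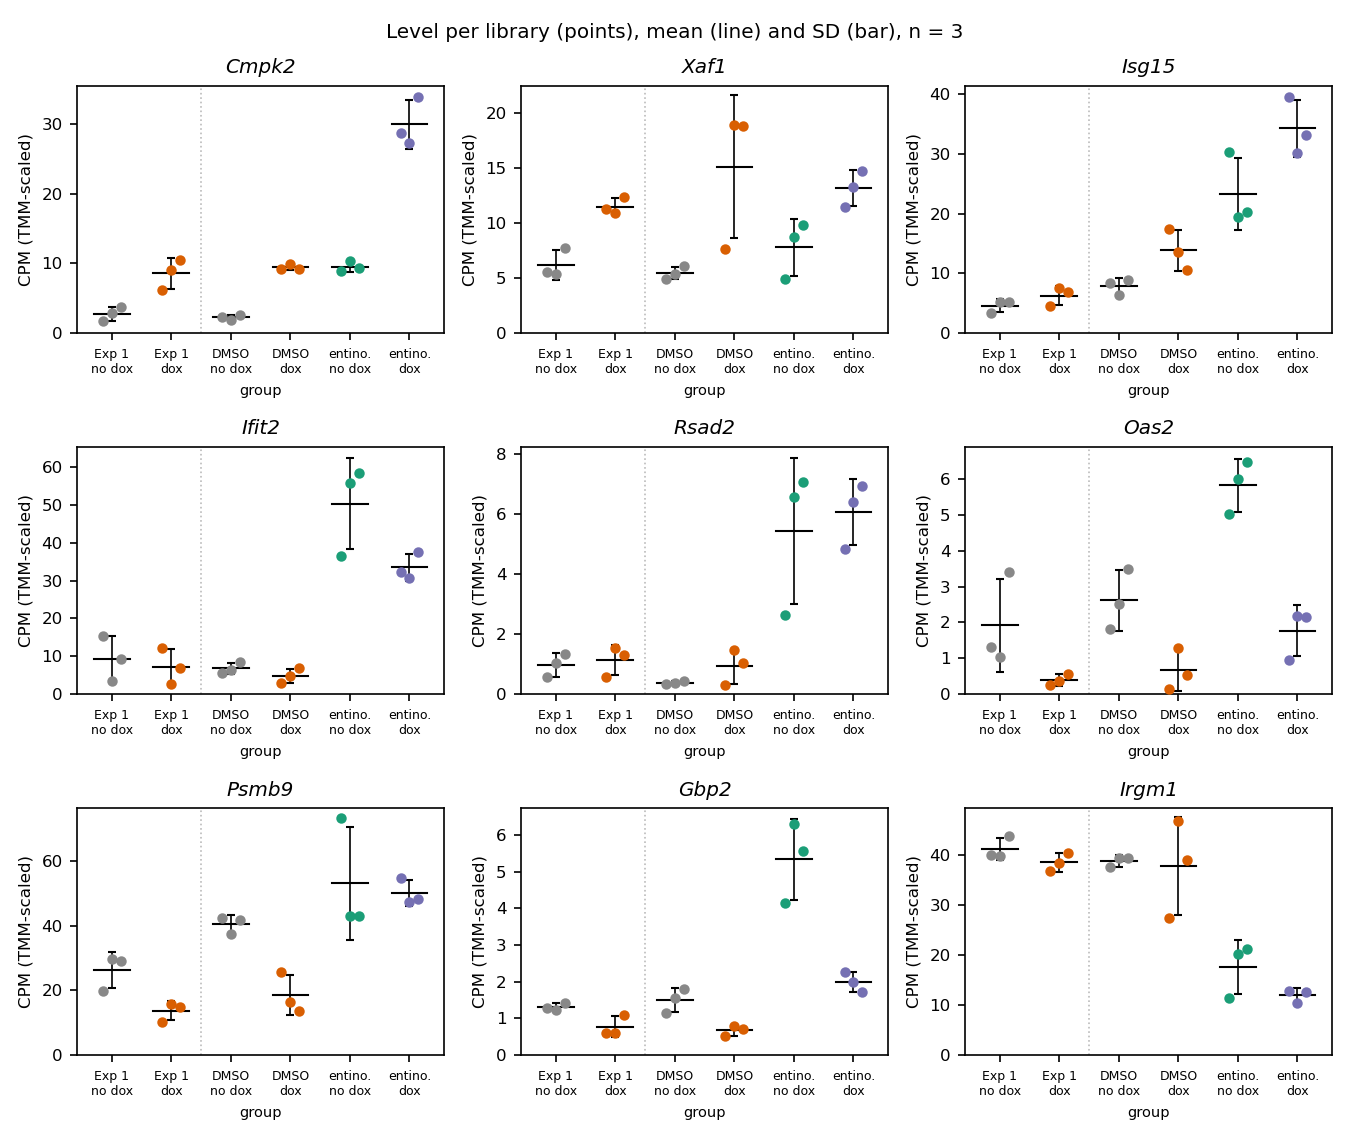
Level in CPM (linear axes) of 9 interferon-stimulated genes in the 3 libraries of each of the 6 groups, with the mean as a line and the SD as a bar; the dotted line parts experiment 1 from experiment 2. Cmpk2 is highest in Dox_Entinostat (27.3 to 33.9 CPM), Ifit2 and Rsad2 are high in both entinostat groups, and Irgm1 is low in them (10.5 to 21.3 CPM).

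No single library ended the calls of the 15 genes with the smallest adjusted p in either entinostat comparison. By complete separation, 23 of the 42 genes lay higher and 7 lower in NoDox_Entinostat than in NoDox_DMSO, against 33.8% and 26.4% of all genes. With doxycycline 21 lay higher and 9 lower, against 35.4% and 30.5%. The counts of this paragraph include the genes named above that did not reach the limit on low counts in the DMSO group alone. Without the 2 libraries that stood apart, 27 rose and 6 fell in the absence of doxycycline, against 36.2% and 27.7% of all genes. In its presence 21 rose and 13 fell, against 43.1% and 34.7%. Besides the changes of call given above, Xaf1 then passed upwards without doxycycline (0.76) and downwards with it (-0.53), Helz2 passed upwards (0.48) and Irf9 downwards (-0.30) without it, and Parp9 passed downwards with it (-0.32).

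The ISRE core was compared with the rises as a description. Of the 17 tested genes with an ISRE core in the window, 10 rose and 1 fell with entinostat without doxycycline, and of the 18 with a window but no core 8 rose and 2 fell. Over all tested genes with a window, 35.1% of the 376 with a core rose and 15.2% fell, against 30.1% and 19.5% of the 9826 without one. With doxycycline 9 of 17 with a core rose and 4 fell, and 8 of 18 without a core rose and 5 fell. Over all genes these shares were 37.5% and 29.8% with a core, and 31.7% and 34.4% without. The rises include Ifit3, with a core, and Ifitm1, without one, in both comparisons. These genes reached the limit on low counts only through the entinostat libraries, so their rises carry no weight here. With doxycycline the 17 also include Trim30a, which did not reach it in Dox_DMSO alone. The shares over all genes were likewise not limited to genes that reached it in the DMSO group alone. The core thus stood beside Ifit1, Isg15, Rsad2 and Gbp2, which rose, and beside Irgm1, which fell, as the sequences printed above show.

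Under entinostat, doxycycline was followed by more falls than rises. With all 12 libraries the share of falls was near that of all genes, and the share of rises was below it. Of 42 genes 1 rose and 7 fell in Dox_Entinostat against NoDox_Entinostat, against 8.96% and 15.1% of all genes, with a median log2 fold change of -0.41 (all genes -0.08). With no filter on low counts 15 of 46 genes fell, against 3328 of all 26903. Cmpk2 was the gene that rose, from 8.89, 10.4 and 9.28 to 28.7, 27.3 and 33.9 CPM (1.66 ± 0.16, adjusted p = 6.61e-05). Gbp2 fell from 4.14, 6.30 and 5.58 to 2.260, 2.0008 and 1.717 CPM (-1.42 ± 0.26, adjusted p = 0.00346), and no single library ended either call. The groups did not overlap for either gene. Oas2 fell from 5.02, 6.01 and 6.46 to 0.940, 2.18 and 2.16 CPM (-1.73 ± 0.51, adjusted p = 0.0302), and Trim30a from 1.261, 2.065 and 2.167 to 0.671, 0.477 and 0.374 CPM (-1.85 ± 0.43, adjusted p = 0.0126).

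The remaining falls were smaller and less stable. Ifih1 fell by 0.84 ± 0.23 on the log2 scale (adjusted p = 0.0242), Dtx3l by 0.96 ± 0.29 (adjusted p = 0.0316), Oasl1 by 0.60 ± 0.19 (adjusted p = 0.0402) and Psmb8 by 0.78 ± 0.26 (adjusted p = 0.0452). The calls of Trim30a (0.0509 to 0.0664) and Ifih1 (0.0839 to 0.111) were lost without the second or the third library of either entinostat group. The calls of Oas2 (0.0722 to 0.0996) and Dtx3l (0.0720 to 0.138) were lost without the same libraries or the first Dox_Entinostat one. The Oasl1 call was lost without any of these 5 or any NoDox_DMSO library (0.0582 to 0.173). The Psmb8 call was lost without any NoDox_DMSO or NoDox_Entinostat library or the second or the third Dox_Entinostat library (0.0587 to 0.154). By complete separation 2 genes lay higher and 11 lower, against 18.3% and 19.4% of all genes. Without the 2 libraries that stood apart 3 rose and 21 fell, against 26.1% and 35.7% of all genes. Isg15 (0.79) and Xaf1 (0.51) were the further rises, and Trim25, Irf9, Dhx58, Eif2ak2, Sp100, Samhd1, Gbp3, Oas3, Parp14, Stat2, Ddx58, Ifit2, Irgm1 and Igtp the further falls, from -0.28 for Irf9 to -1.20 for Parp14. Leaving out 1 library gave 17 falls without the first NoDox_Entinostat library (all genes 4431 of 15517) and 13 without the first Dox_DMSO library (3436 of 15614). It gave 4 without the first Dox_Entinostat library (1800 of 15571). Without the second or the third library of either entinostat group it gave 1 (766 to 1094 of 15431 to 15490). The count thus moved for all genes as well.

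Whether entinostat altered the response to doxycycline was tested by the interaction, which subtracts the response to doxycycline in DMSO from the response in entinostat. With all 12 libraries 0 of the 42 genes passed in either direction by edgeR, against 0.166% and 0.106% of all genes, and 8 had an unadjusted p under 0.05, 2 of them positive and 6 negative. By DESeq2 0 passed as well, against 0.811% and 0.751% of all genes. The median was -0.34 (all genes -0.09). Cmpk2, which rose with each treatment, had an interaction of -0.41 ± 0.23 (adjusted p = 0.346). Psmb9 had one of 1.05 ± 0.35 (adjusted p = 0.308) and Trim30a one of -1.75 ± 0.64 (adjusted p = 0.314).

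Without the first Dox_DMSO and the first NoDox_Entinostat library, 1 gene passed upwards and 19 downwards, against 21.5% and 30.0% of all genes. Leaving out either of these libraries alone gave 1 gene upwards and 6 downwards, against 6.52% and 10.4% of all genes without the first Dox_DMSO library and 5.98% and 13.7% without the first NoDox_Entinostat library. Psmb9 was the gene that passed upwards (1.65, adjusted p = 3.49e-06). Among the 19 were Trim30a (-2.33), Rsad2 (-1.87), Oas3 (-1.65), Dtx3l (-1.59), Ifih1 (-1.50), Samhd1 (-1.45), Igtp (-1.43), Parp14 (-1.42), Xaf1 (-1.29) and Eif2ak2 (-1.10). The count thus differed with the libraries that entered, for the list and for all genes. The adjusted p-values without both libraries rest partly on the 2 closely alike pairs described above.

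**Figure D5:**
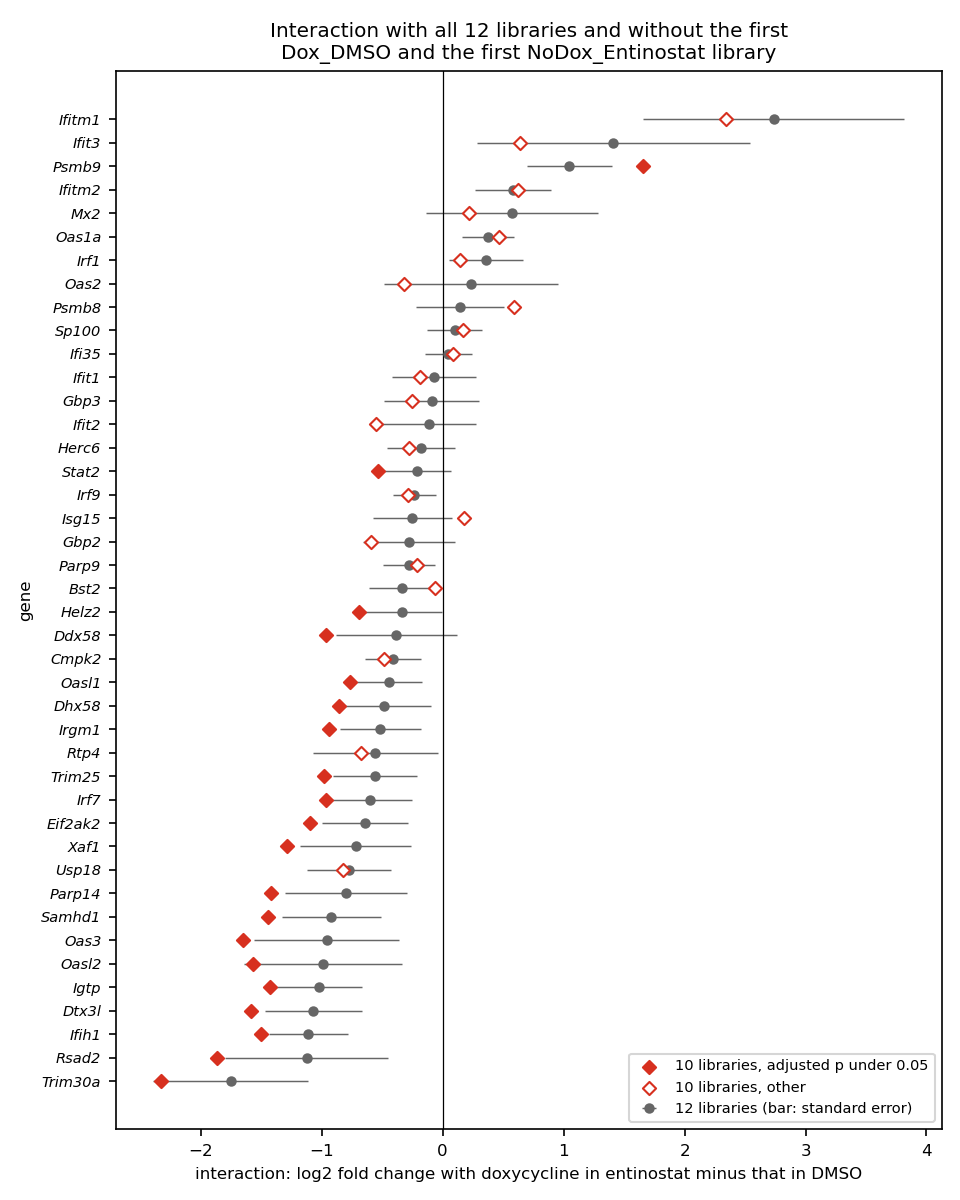
Interaction (log2 response to doxycycline under entinostat less the response under DMSO) of the 42 tested genes with all 12 libraries (grey, bars are standard errors) and without the first Dox_DMSO and the first NoDox_Entinostat library (red, filled where the adjusted p was under 0.05). No gene passes with 12 libraries, and with 10 libraries Psmb9 (1.65) passes above 0 and 19 genes down to Trim30a (-2.33) pass below it.

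Around the list lies the pathway itself, for which 51 further genes were followed, 33 of them tested in experiment 1 and 36 in experiment 2. With doxycycline 1 rose and 5 fell in experiment 1 (all genes 5.26% and 8.36%), 1 rose and 4 fell in DMSO (3.77% and 5.53%), and 1 rose and 10 fell in entinostat (8.96% and 15.1%). With entinostat 10 rose and 6 fell without doxycycline (30.3% and 16.9%), and 8 rose and 15 fell with it (33.9% and 29.9%). The interaction had 0 in either direction by edgeR, with 10 at an unadjusted p under 0.05.

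Interferon genes themselves were barely detected. Ifnb1 was at 0 in 10 of the 12 libraries of experiment 2 and at 0.147 and 0.0215 CPM in 2 Dox_DMSO libraries. In experiment 1 it was at most 0.0916 CPM. Ifne stood at 1 count in every library of experiment 1, the lowest value of the table, and at most at 0.0556 CPM in experiment 2, where Ifna1 reached at most 0.0365 CPM. The receptor chain Ifnar1 was well expressed, at 44.2 to 75.9 CPM in all 18 libraries, and passed in no comparison. Ifnar2 fell with entinostat from 37.4, 35.4 and 38.3 to 19.5, 21.4 and 22.5 CPM (-0.81 ± 0.14, adjusted p = 0.000530), and by 0.94 ± 0.14 on the log2 scale with doxycycline present (adjusted p = 0.000138).

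Among genes of nucleic acid sensing, Tmem173, which encodes the DNA-sensing adaptor STING, stood at 1.16, 0.924 and 0.969 CPM in Exp1_NoDox and at 0.0830, 0.0509 and 0.0687 in Exp1_Dox (-3.89 ± 0.24, adjusted p = 0.000882). In DMSO it fell from 1.37, 1.63 and 1.68 CPM to 0, 0.0864 and 0.0215 (-5.29 ± 0.57, adjusted p = 6.14e-05). Entinostat raised it to 9.83, 16.8 and 17.2 CPM without doxycycline (3.23 ± 0.37, adjusted p = 2.32e-05), and with doxycycline it stood at 0.895, 1.21 and 0.528 CPM (4.46 ± 0.59 against Dox_DMSO, adjusted p = 5.33e-05). Irf5, an IRF of myeloid cells, and Unc93b1, which carries endosomal Toll-like receptors, were likewise lowest in Dox_DMSO and highest in NoDox_Entinostat by group mean. Irf5 changed by -1.62 ± 0.15, -3.81 ± 0.42 and -2.05 ± 0.34 with doxycycline and by 2.19 ± 0.34 and 3.96 ± 0.42 with entinostat. Unc93b1 changed by -1.72 ± 0.15 and -1.28 ± 0.28 with doxycycline in experiment 1 and DMSO, and by 1.86 ± 0.27 and 2.53 ± 0.28 with entinostat. Its call in DMSO was lost without the third NoDox_DMSO library (adjusted p = 0.0548).

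Among negative regulators, Socs3, an inhibitor of JAK signalling, rose with doxycycline by 1.63 ± 0.20 in experiment 1, 2.28 ± 0.45 in DMSO and 1.34 ± 0.40 in entinostat, and the phosphatase gene Ptpn6 fell by 0.78 ± 0.08, 1.04 ± 0.18 and 1.13 ± 0.18 on the log2 scale. Ptpn2 fell by 0.28 ± 0.07 in experiment 1 (adjusted p = 0.0459), a call that was lost without any 1 of the 6 libraries (0.107 to 0.196). The kinase gene Jak1 fell with doxycycline in entinostat (-1.01 ± 0.28, adjusted p = 0.0249), as did the adaptor Myd88 (-0.95 ± 0.20, adjusted p = 0.00846). The Jak1 call was lost without any Dox_Entinostat library or the second or the third NoDox_Entinostat library (0.0548 to 0.111). The Socs3 call in entinostat was lost without the second or the third library of either entinostat group (0.0730 to 0.120) and with library size alone in place of TMM. With entinostat without doxycycline, Nlrc5, the MHC class I transactivator, rose by 2.34 ± 0.24 and Socs1 by 3.24 ± 0.52, and Irf2bp2, a corepressor of IRF2, fell by 1.31 ± 0.16 on the log2 scale. Tlr3 and the interferon lambda receptor Ifnlr1 had 0 counts in NoDox_DMSO. Against a floor of 3 counts over that group they were at least 28.8-fold and 38.7-fold higher in NoDox_Entinostat, at levels of at most 0.895 CPM.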

How the data were processed

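RNA was measured by polyadenylated RNA-seq (TruSeq RNA v2, which does not keep strand) in 18 libraries. The deposited values are read counts per gene, 1 table per experiment; the submitters' processing notes name bcl2fastq 2.17.1.14, STAR, DESeq2 and mm10 without roles, and the counting tool and annotation are not given in the sources used here. From the counts as deposited, edgeR 4.0.16 (R 4.3.3) was fitted separately for each experiment, with TMM scaling, filterByExpr, group means and the quasi-likelihood test. Adjusted p-values are from these edgeR fits or, where the sentence says so, from the same edgeR model with a replicate block, with 1 subtracted from each count or without named libraries, each with Benjamini-Hochberg adjustment over all genes tested and a threshold of 0.05. DESeq2 1.42.0 was an alternative. The scripts were tested on simulated data.

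The members and lists were chosen with earlier results of these data known. Named are all called list genes, up to 15 per comparison by adjusted p, and up to 10 called pathway genes, some of which are not reported here; others illustrate a role. The split at 10 CPM and the limit applied to the DMSO group alone were chosen after the values were seen. Same-numbered libraries of experiment 1 deviated together (correlations 0.313, 0.724 and 0.829), so its numbers were taken as pairs. In experiment 2 same-numbered libraries correlated at 0.00947 to 0.780 over 18 pairs (median 0.100), and those with other numbers had a median of -0.0465. The numbers of experiment 2 were not taken as pairs, although all 18 same-numbered correlations were positive. Counts that moved with these numbers as a block are given below. The highest value, 0.780, joined the first Dox_DMSO and the first NoDox_Entinostat library. Levels per kb use exon lengths of GENCODE gene models on mm10, and promoters are RefSeq's. The p-values measure the spread between libraries of 1 line.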

Additional observations from a re-analysis of the deposited data

How the results depend on the processing

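Counts are of the 42 tested interferon-stimulated genes, except where the filter on low counts was changed. With the replicate block, 7 rose and 19 fell with doxycycline in experiment 1 in place of 2 and 4, against 26.1% and 24.7% of all genes with the block. In experiment 2, whose numbers were not taken as pairs, the replicate block gave 3 up and 15 down for doxycycline in entinostat in place of 1 and 7. Over all 15051 genes that fit gave 2691 up and 3424 down. The block gave 7 down for entinostat without doxycycline in place of 3 (all genes 3392), and 1 up for the interaction in place of 0 (all genes 73). With no filter on low counts, which left 46 genes of the list, 15 fell with doxycycline in entinostat, against 3328 of all 26903 genes. Without the first Dox_DMSO and the first NoDox_Entinostat library, 10 rose with doxycycline in DMSO in place of 3, 3 rose and 21 fell with it in entinostat, 6 fell with entinostat without doxycycline, and the interaction had 1 up and 19 down. The shares of all genes in this fit are given above. TMM against DESeq2's size factors within edgeR, library size alone, a filter at 1 CPM and DESeq2 moved no count of calls by over 1.5 times. The median in DMSO turned from -0.08 to 0.05 without the 2 libraries.

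Leaving out each library in turn gave ranges of 0 to 2 up and 1 to 3 down with doxycycline in experiment 1, 1 to 5 up and 1 to 6 down in DMSO, and 1 to 3 up and 1 to 17 down in entinostat. The highest of these falls, 17, came without the first NoDox_Entinostat library, where 4431 of all 15517 genes fell. Entinostat gave 19 to 24 up and 2 to 5 down without doxycycline (5 without the first Dox_DMSO library), and 18 to 22 up and 8 to 11 down with it. Over all genes the ranges were 4055 to 5134 up and 1917 to 3059 down without doxycycline, and 4415 to 6109 up and 3900 to 4849 down with it. The interaction gave 0 to 1 up and 0 to 6 down, with 1 up and 6 down without the first Dox_DMSO or the first NoDox_Entinostat library. Genes under 1 CPM, such as Ifitm1 and Ifit3, rest on few counts.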
